A study of Mus musculus with 11 samples.

Results

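The complement and coagulation genes described here are 42 genes, picked by symbol from the 46603 genes of the count table: complement components and regulators, fibrinogen, clotting factors, kininogen, anticoagulants and fibrinolysis genes. Of these, 23 belong to complement and 19 to coagulation and fibrinolysis. By textbook knowledge 37 are made mainly by hepatocytes and 1 mainly by adipocytes (*Cfd*). The other 4 are grouped as macrophage-made: the C1q chains *C1qa*, *C1qb* and *C1qc*, and properdin, *Cfp*, which other cells make as well. Each of the 42 was found in the table and passed the filter on low counts, although *Cfd* was close to the detection floor.

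Liver RNA came from male *ob/ob* mice, which carry a loss-of-function allele of leptin and become obese, fed the AMLN diet (high in trans-fat, fructose and cholesterol) from 5 to 6 weeks of age. After 15 weeks of diet, with the diet continued, 7 mice received vehicle (0.5% carboxymethyl cellulose) and 4 received INT-767 at 10 mg/kg, each by gavage once daily for 8 weeks. INT-767 is a bile acid analog that activates the nuclear receptor FXR and the membrane receptor TGR5. Both groups share the leptin mutation, the diet and a baseline liver biopsy, so no group shows these genes in a lean or chow-fed liver.

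Complement is a cascade of plasma proteases and binding proteins. C1q (on antibody or debris), mannose-binding lectins (on sugars) or spontaneous C3 turnover start it, all routes cleave C3, and C5 to C9 then assemble the membrane attack complex. Coagulation is a second protease cascade, in which prothrombin becomes thrombin, thrombin turns fibrinogen into fibrin, factor XIII cross-links the fibrin and plasmin dissolves it. The liver supplies most of the plasma pool of both systems, while tissue macrophages, Kupffer cells included, are the main source of C1q.

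The vehicle libraries held 7966963 to 15295230 counts each (7 mice), and the INT-767 libraries 7381211 to 16022459 (4 mice). The 42 genes took between 2.17% and 3.52% of a mouse's counts. Levels are given as CPM, the counts of a gene per 1000000 counts of the library after TMM scaling. The tissue label was borne out by hepatocyte markers: albumin (*Alb*) averaged 42970 CPM in vehicle livers, and the 12 hepatocyte markers together 72280 CPM ± 7502 (SD, n = 7).

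Some libraries stood apart in a way the groups did not define. Across 13835 genes, the deviation of a mouse from the mean of the 11 mice correlated negatively with transcript length in vehicle mice 1 and 7 (Spearman's rho of -0.18 and -0.23) and in INT-767 mice 2 and 4 (-0.30 and -0.31), and positively in the other 7 mice (0.09 to 0.30). These correlations are across genes of single libraries and are given as a description. Among the 37 hepatocyte-made members the same 4 mice had rho between -0.32 and -0.47, INT-767 mouse 3 had -0.18, and the other 6 mice had 0.15 to 0.53. *F5*, *Hc*, *C4b* and *Masp1*, the longest transcripts, were below the gene's mean over the 11 mice in each of those 4 mice, and *C3*, the next longest, in all but INT-767 mouse 2, as the heatmap of member levels shows. *Serpinc1*, which follows in length, was highest in INT-767 mice 2 and 4. In addition, INT-767 mouse 4 held 45 counts of *Adipoq* and 64 of *Lep*, adipocyte genes that were at 0 counts in all 7 vehicle mice. Results are therefore also given for the 5 vehicle and 2 INT-767 mice with a positive length trend over all genes, a comparison chosen after the data were seen, with an offset for GC content and transcript length in all 11 mice, and without INT-767 mouse 4. The part of adipose RNA in the group differences was not tested.

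**Figure D1:**
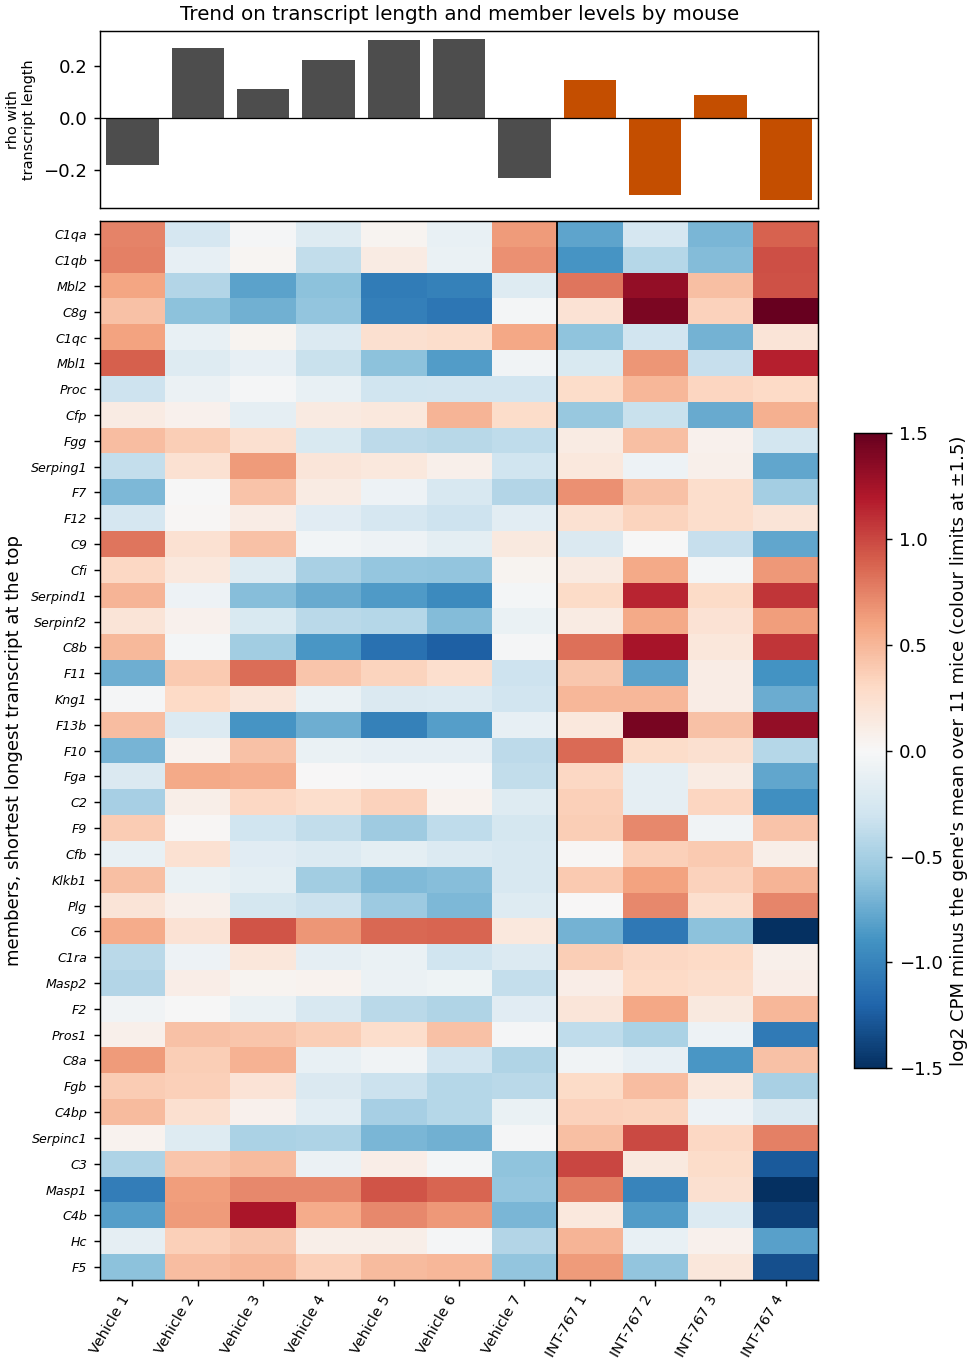
Heatmap of 41 members (rows, ordered by the longest transcript; *Cfd* is left out for its counts near 0) in 11 mice (columns); colour is log2 CPM minus the gene's mean over the mice, and the bars on top give each mouse's Spearman's rho between deviation and transcript length over 13835 genes. The bars are negative in vehicle mice 1 and 7 and INT-767 mice 2 and 4, where the 4 rows at the bottom (*Masp1*, *C4b*, *Hc* and *F5*) are blue; *C3* is blue in 3 of these mice, and *Serpinc1* above it is red in both treated ones.

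INT-767-treated livers had more RNA for a lectin, for 2 of the 3 chains of C8, and for several clotting factors and clotting inhibitors made by hepatocytes, and less for *C6* and protein S. Between groups, 8 of the 42 genes rose and 2 fell in the main fit (edgeR's quasi-likelihood test, Benjamini-Hochberg adjusted p under 0.05 over 13880 genes). The 8 are 19.0% of the members, where 5.04% of all tested genes rose, and the 2 are 4.76%, where 4.68% of all tested genes fell (9.72% in either direction). The genes that rose were *Mbl2*, *C8b*, *C8g*, *F13b*, *F2*, *Proc*, *Serpinc1* and *Serpind1*, and those that fell were *C6* and *Pros1*. Each of the 10 is hepatocyte-made. The median log2 fold change of the 42 was 0.21, against -0.01 for all tested genes.

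In 4 members each INT-767 value lay above each vehicle value (*F2*, *F12*, *Proc* and *Serpinc1*), and in 2 (*C6* and *Pros1*) each lay below. Among all tested genes 3.87% were separated upward and 3.64% downward. By complement and coagulation, 3 of 23 complement genes rose and 1 fell (median log2 fold change -0.09), and 5 of 19 coagulation genes rose and 1 fell (median 0.40). Several members lay just outside the threshold: *Klkb1*, *Plg* and *Serpinf2* had adjusted p-values of 0.0501, 0.0548 and 0.0569.

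These counts rested on few mice. Without INT-767 mouse 2, 0 members rose and only *C6* fell by edgeR, where 1.14% of all tested genes rose and 0.767% fell. Without vehicle mouse 1, 12 rose and 2 fell (13.7% and 9.86% of all). Without INT-767 mouse 4, 3 rose and 4 fell (3.30% and 3.17% of all). Leaving out vehicle mouse 3, 4, 5 or 6 in turn, 5, 5, 4 and 3 rose (3.09%, 2.71%, 2.5% and 2.25% of all), and without mouse 4 or 6 only 1 fell (2.84% and 1.96% of all). In the mice with a positive length trend, 7 rose and 8 fell (5.96% and 6.12% of all), and 8 of the 10 calls remained (all but *F2* and *Proc*). With the offset for GC content and length 12 rose and 4 fell (7.76% and 5.86% of all), and all 10 calls remained. With library sizes alone as the scaling, which moved the median log2 fold change of all genes to -0.22, 5 rose and 4 fell (2.38% and 7.39% of all).

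**Figure D2:**
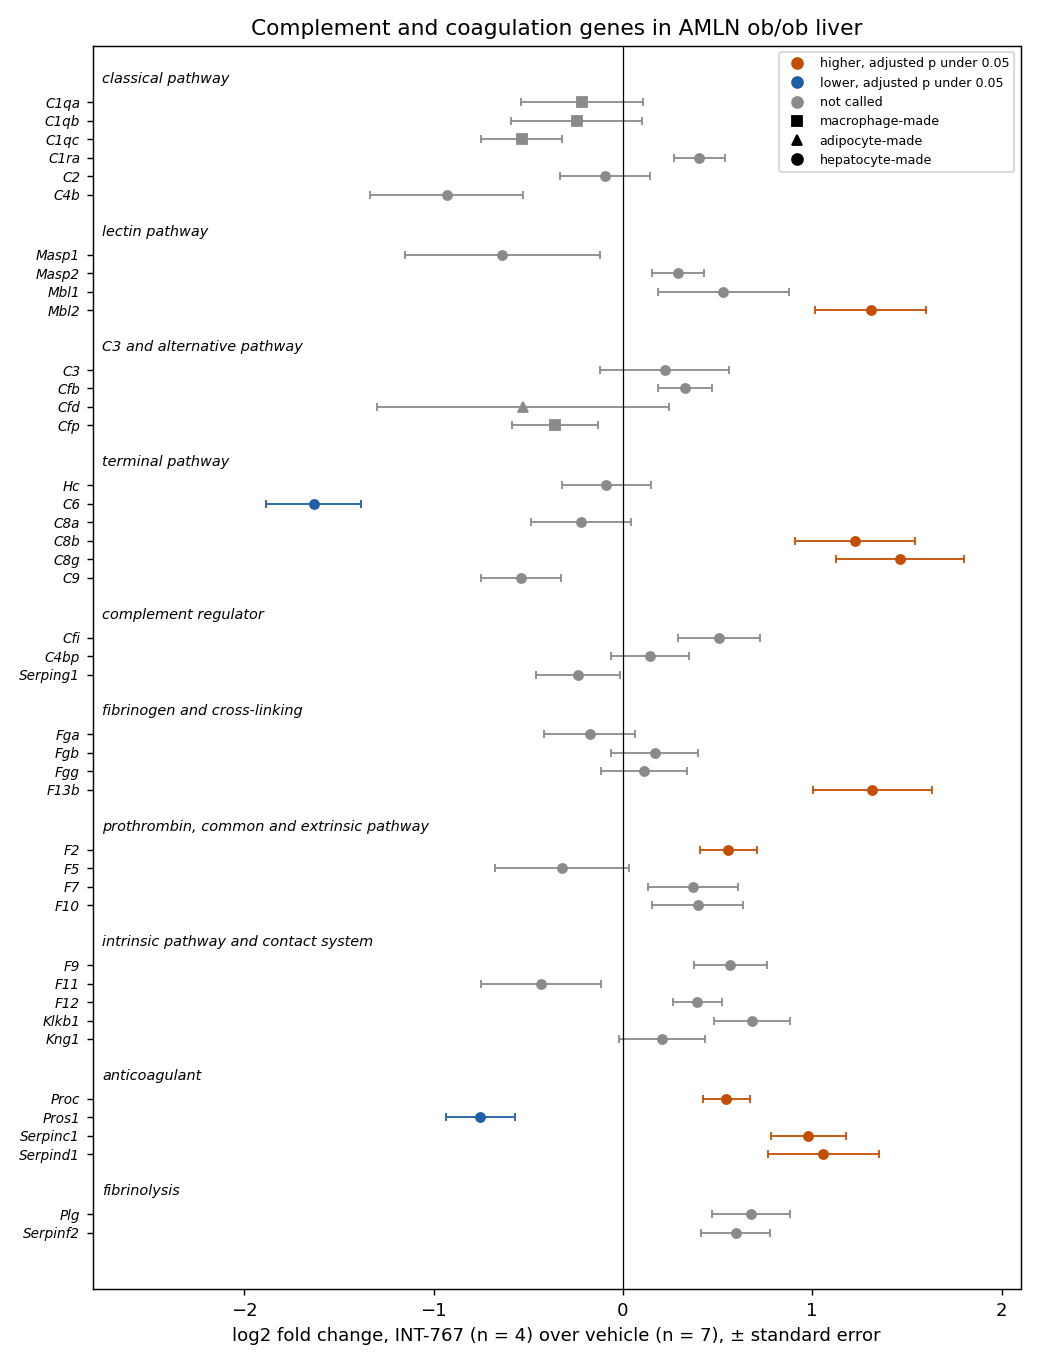
Log2 fold change (INT-767, n = 4, over vehicle, n = 7; horizontal axis) of the 42 members by role, with bars of ± 1 standard error; symbols give the main cell source and colours the call at an adjusted p under 0.05. The 8 orange genes rose, the 2 blue genes (*C6* at -1.63 and *Pros1* at -0.75) fell, and the 4 macrophage-made genes (squares) lie left of 0 without a call.

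Promoter sequences are shown for 7 of the 9 called members with RefSeq entries, to place the genes that rose beside those that fell and to show the nuclear receptor half-site that 4 of them hold just before the start. Not shown are *C8g*, whose entries held none of the letters named here, and *Serpind1*, with AGGTCA 27 bases after the start. The windows run from 120 bases before to 30 after the RefSeq transcription start (GRCm38.p6), read 5′ to 3′ on the gene's strand. They are chr2:91636428-91636577 for *F2* (minus strand), chr4:104766197-104766346 for *C8b*, chr19:30232808-30232957 for *Mbl2*, chr15:4727090-4727239 for *C6*, chr1:139501587-139501736 for *F13b*, chr1:160978463-160978612 for *Serpinc1* and chr16:62854187-62854336 for *Pros1* (all plus strand). Capitals mark the motif matches named after the sequences.
F2: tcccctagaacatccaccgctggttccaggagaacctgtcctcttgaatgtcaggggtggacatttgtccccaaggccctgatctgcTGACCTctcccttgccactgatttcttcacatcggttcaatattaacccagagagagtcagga
C8b: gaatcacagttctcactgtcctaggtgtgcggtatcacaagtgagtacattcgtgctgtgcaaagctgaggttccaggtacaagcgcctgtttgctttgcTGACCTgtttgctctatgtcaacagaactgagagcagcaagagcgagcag
Mbl2: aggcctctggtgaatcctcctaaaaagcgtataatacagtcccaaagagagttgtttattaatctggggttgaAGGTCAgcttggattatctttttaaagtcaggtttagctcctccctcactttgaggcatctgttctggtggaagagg
C6: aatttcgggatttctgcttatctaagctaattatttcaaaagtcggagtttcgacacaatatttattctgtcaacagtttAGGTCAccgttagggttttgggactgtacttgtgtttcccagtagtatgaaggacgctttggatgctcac
F13b: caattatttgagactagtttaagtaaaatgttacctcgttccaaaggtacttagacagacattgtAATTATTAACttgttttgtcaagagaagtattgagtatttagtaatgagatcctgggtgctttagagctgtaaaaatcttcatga
Serpinc1: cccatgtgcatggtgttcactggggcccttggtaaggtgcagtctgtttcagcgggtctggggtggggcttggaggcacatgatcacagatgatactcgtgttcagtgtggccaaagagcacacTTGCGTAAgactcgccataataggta
Pros1: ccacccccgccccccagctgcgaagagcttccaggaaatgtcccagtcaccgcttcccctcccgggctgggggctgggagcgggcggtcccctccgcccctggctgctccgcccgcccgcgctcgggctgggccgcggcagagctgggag

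The capitals are AGGTCA or its reverse complement in *F2* (starting 33 bases before the start), *C8b* (20 bases before), *Mbl2* (47 bases before) and *C6* (40 bases before), GTTAAT, any base and ATT on the other strand in *F13b* (55 bases before), and TTGCNNAA in *Serpinc1* (4 bases after). In *Pros1* these letters were not found. AGGTCA is the half-site of many nuclear receptors, among them FXR and HNF4A, and TTGCNNAA is a C/EBP motif.

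Of the 42 members, 32 have a promoter entry, 28 of them hepatocyte-made and 3 macrophage-made. On both strands of the 300-base entries (250 bases before and 50 after the start), AGGTCA was in 12 of 28 hepatocyte-made members (42.9%) and in 16.3% of all 32817 promoters. It was also in 2 of the 3 macrophage-made members, *C1qc* and *Cfp*. Within the last 60 bases before the start it was in 7 of 28 (25.0%) and in 3.39% of all, a window set after the matches were seen. Those 7 were *C6*, *C8b*, *F10*, *F2*, *F5*, *F7* and *Mbl2*, of which 3 rose, 1 fell and 3 were not called. Over the whole entry AGGTCA was in 5 of 9 called and 9 of 23 uncalled members, so that both held it. TTGCNNAA was in 9 of 28 (32.1%, 10.8% of all) and GTTAAT with any base and ATT in 3 of 28 (10.7%, 0.399% of all).

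The inverted repeat known for FXR (AGGTCA, any base, TGACCT), the direct repeat (AGGTCA, any base, AGGTCA), both of which contain AGGTCA, and the longer form GTTAAT, any base, ATTAAC, which contains the shorter one, were in 0 of 28. In all promoters they were found in 0.00914%, 0.0396% and 0.00914%. The motif of the macrophage factor PU.1, GAGGAAGT, which contains AGGAAG, was in 0 of 28 hepatocyte-made members and in *C1qc*, 1 of the 3 macrophage-made members with an entry (3.20% of all promoters). The shorter AGGAAG was in 6 of 28 hepatocyte-made members (21.4%), in 2 of the 3 macrophage-made members (*C1qb* and *C1qc*) and in 35.4% of all. A match describes letters in a window and is no evidence of binding.

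The classical pathway had no called member among 6. *C1qa*, *C1qb* and *C1qc* encode the 3 chains of C1q and lie side by side on chromosome 4 (GRCm38 chr4:136880129-136898803). *C1qa* ranged from 76.0 to 152 CPM with vehicle (median 89.3) and was 52.3, 76.1, 56.1 and 167 CPM in INT-767 mice 1 to 4. *C1qb* ranged from 80.7 to 176 CPM with vehicle (median 106) and was 56.2, 76.9, 66.2 and 203 CPM with INT-767. *C1qc* ranged from 75.2 to 132 CPM with vehicle (median 102) and was 57.2, 71.2, 53.0 and 99.2 CPM with INT-767. In all 3 chains INT-767 mouse 4 was far above the other 3 treated mice, and vehicle mice 1 and 7 were the highest of their group. The log2 fold changes were -0.22 ± 0.32 (SE), -0.24 ± 0.35 and -0.54 ± 0.22, with adjusted p-values of 0.644, 0.625 and 0.111.

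Levels fell with transcript length in the 2 highest vehicle mice and in INT-767 mice 2 and 4 (rho -0.30 and -0.31). In each of the 3 chains mouse 4 had the highest value of the treated mice and mouse 2 the next highest. The part of the length trend in the C1q values was not tested. With the offset for GC content and length the log2 fold changes of *C1qa*, *C1qb* and *C1qc* were -0.42, -0.43 and -0.66 (adjusted p = 0.220, 0.272 and 0.0235), and without INT-767 mouse 4 they were -0.74, -0.85 and -0.76 (adjusted p = 0.0991, 0.0686 and 0.0478). In the mice with a positive length trend the 3 chains had log2 fold changes of -0.63, -0.68 and -0.70, with adjusted p-values of 0.0171, 0.0221 and 0.0201. Those 5 against 2 mice were selected after the data were seen. When each of the 11 mice was left out in turn, the weakest log2 fold changes of *C1qa*, *C1qb* and *C1qc* were -0.028, -0.041 and -0.415. The adjusted p-values of these fits ran up to 0.9535, 0.9367 and 0.2289.

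The other classical pathway members were not called in all 11 mice. *C1ra*, the C1r protease, averaged 102.5 CPM ± 13.2 (SD, n = 7) with vehicle and 136 ± 11.8 (n = 4) with INT-767 (log2 fold change 0.40 ± 0.13, adjusted p = 0.0699), and was called higher with the offset for GC content and length (0.53, adjusted p = 0.0118) and by DESeq2. *C4b*, which encodes C4, was the most variable of these, from 456 to 1879 CPM with vehicle and from 306 to 898 with INT-767 (-0.93 ± 0.40, adjusted p = 0.133), and was called lower in the mice with a positive length trend (-0.78, adjusted p = 0.0379). *C2* averaged 21.9 and 20.6 CPM. Of the windows of 75 bases in these genes' transcripts, 42.4% in *C1ra*, 22.7% in *C4b* and 39.2% in *C2* also occur in other genes (*C1rb*, *C4a* and the read-through gene *Gm20547* in the main), so that their reads could be split or shared.

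*Mbl2*, which encodes the mannose-binding lectin MBL-C, was the lectin pathway gene that rose. It ranged from 89.9 to 281 CPM with vehicle (median 122) and was 324, 464, 256 and 362 CPM with INT-767. Vehicle mouse 1, at 281, was the only vehicle mouse above the lowest treated mouse. The fold change was 2.48 on the linear scale, or 1.31 ± 0.29 on the log2 scale (adjusted p = 0.0199, and 0.0881 without INT-767 mouse 2). The other lectin gene, *Mbl1*, for MBL-A, averaged 102 CPM ± 46.6 with vehicle and 148 ± 73.9 with INT-767 (0.53 ± 0.34, adjusted p = 0.283). The lectin-associated proteases *Masp1* and *Masp2* had log2 fold changes of -0.64 ± 0.51 and 0.29 ± 0.14 and were not called. *Masp2* overlaps *Tardbp* on the opposite strand over 54.9% of its exon bases, and the strand setting of the counting is not given in the sources used here.

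*C3* and the alternative pathway had no called member, at wide spreads. *C3*, on which all routes converge, was the most abundant member per length, at 1007 CPM per kb of exon with vehicle. It ranged from 3365 to 7104 CPM with vehicle (median 4995) and was 10240, 5628, 6176 and 2124 CPM with INT-767. The highest and the lowest of the 11 mice were thus both treated with INT-767, and the log2 fold change was 0.22 ± 0.34 (adjusted p = 0.655). *Cfb*, the alternative pathway protease, averaged 11.8 CPM ± 1.45 and 14.9 ± 1.91 (0.33 ± 0.14, adjusted p = 0.135), and 69.9% of its windows are shared with *Gm20547*.

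Properdin and factor D, the alternative pathway members made outside hepatocytes, were low. *Cfp*, for properdin, ranged from 19.0 to 29.9 CPM with vehicle (median 22.9) and was 14.1, 16.6, 12.4 and 30.3 CPM with INT-767 (-0.36 ± 0.23, adjusted p = 0.275). INT-767 mice 1 to 3 lay below all vehicle mice and mouse 4 above them. The summed neutrophil markers were also highest in mouse 4, at 29.3 CPM, against at most 17.1 CPM with vehicle. The part of neutrophils in the *Cfp* values was not tested. *Cfd*, for factor D or adipsin, ranged from 0.233 to 2.49 CPM with vehicle (median 0.943) and was 0.254, 0.276, 0 and 2.17 CPM with INT-767 (-0.53, adjusted p = 0.638). Without INT-767 mouse 4 the log2 fold change of *Cfd* was -2.41 (adjusted p = 0.106), and in the mice with a positive length trend it was called lower (-2.88, adjusted p = 0.0419), at a few counts per library. The 0 in mouse 3 allows up to 0.422 CPM (3 counts). The value of 2.17 was in the library that held the *Adipoq* and *Lep* counts.

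The terminal pathway moved in both directions. *C6*, whose protein joins C5b to start the attack complex, ranged from 49.0 to 84.4 CPM with vehicle (median 69.2) and was 26.7, 20.8, 28.5 and 11.97 CPM with INT-767. Each treated mouse lay below each vehicle mouse, and the fold change was 0.322 on the linear scale (log2 -1.63 ± 0.25, adjusted p = 0.00403), the smallest adjusted p of the 42. *C6* was the only member called in each of the 11 fits that left out 1 mouse. *C9*, which polymerises into the pore of the complex, also lies on chromosome 15. It ranged from 259 to 497 CPM with vehicle (median 318) and was 246, 285, 226 and 167 CPM with INT-767 (-0.54 ± 0.21, adjusted p = 0.105). *C9* was called lower with the offset for GC content and length (-0.81, adjusted p = 0.0217) and with library sizes alone (-0.74, adjusted p = 0.0373). *Hc*, which encodes C5, ranged from 387 to 693 CPM with vehicle (median 558) and was 747, 486, 551 and 298 CPM with INT-767 (-0.09 ± 0.23, adjusted p = 0.803).

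C8 is a complex of 3 chains, encoded by *C8a* and *C8b*, which are neighbours on opposite strands of chromosome 4 (chr4:104766317-104804548 for *C8b* and chr4:104815679-104876398 for *C8a*), and by *C8g* on chromosome 2. *C8b* ranged from 30.6 to 100 CPM with vehicle (median 50.0) and was 127, 168, 80.7 and 151 CPM with INT-767. *C8g*, for the lipocalin chain, ranged from 113 to 324 CPM with vehicle (median 157) and was 279, 638, 304 and 747 CPM with INT-767. In both genes vehicle mouse 1 reached into the treated range, and the log2 fold changes were 1.23 ± 0.32 (adjusted p = 0.0324) and 1.46 ± 0.34 (adjusted p = 0.0219). Both calls were lost without INT-767 mouse 2 or 4, and that of *C8b* also without vehicle mouse 3, 4, 5 or 6 (adjusted p up to 0.131 for *C8b* and 0.0929 for *C8g*). *C8a* was not called, at 252 CPM ± 73.3 with vehicle and 216 ± 75.2 with INT-767 (-0.22 ± 0.27, adjusted p = 0.561).

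Ratios of counts between partner genes in the same mouse do not depend on library scaling, but they can move with transcript length where partners differ in it (3617 bases for *C8a*, 2239 for *C8b* and 1150 for *C8g*). The log2 ratio of *C8b* to *C8a* lay between -2.73 and -1.24 in vehicle mice and was -0.80, -0.32, -0.63 and -1.04 in INT-767 mice, without overlap. The log2 ratio of *C8g* to *C8a* lay between -1.18 and 0.49 with vehicle and was 0.34, 1.61, 1.28 and 1.27 with INT-767, where vehicle mouse 7 exceeded INT-767 mouse 1. In both ratios the 2 highest vehicle mice were 1 and 7, those with a negative length trend. Between *C8g* and *C8b* the mean log2 ratio was 1.69 ± 0.28 (SD, n = 7) with vehicle and 1.82 ± 0.49 (n = 4) with INT-767. The 8 pairs plotted were chosen after the members' values were seen, and no test is given for them.

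**Figure D3:**
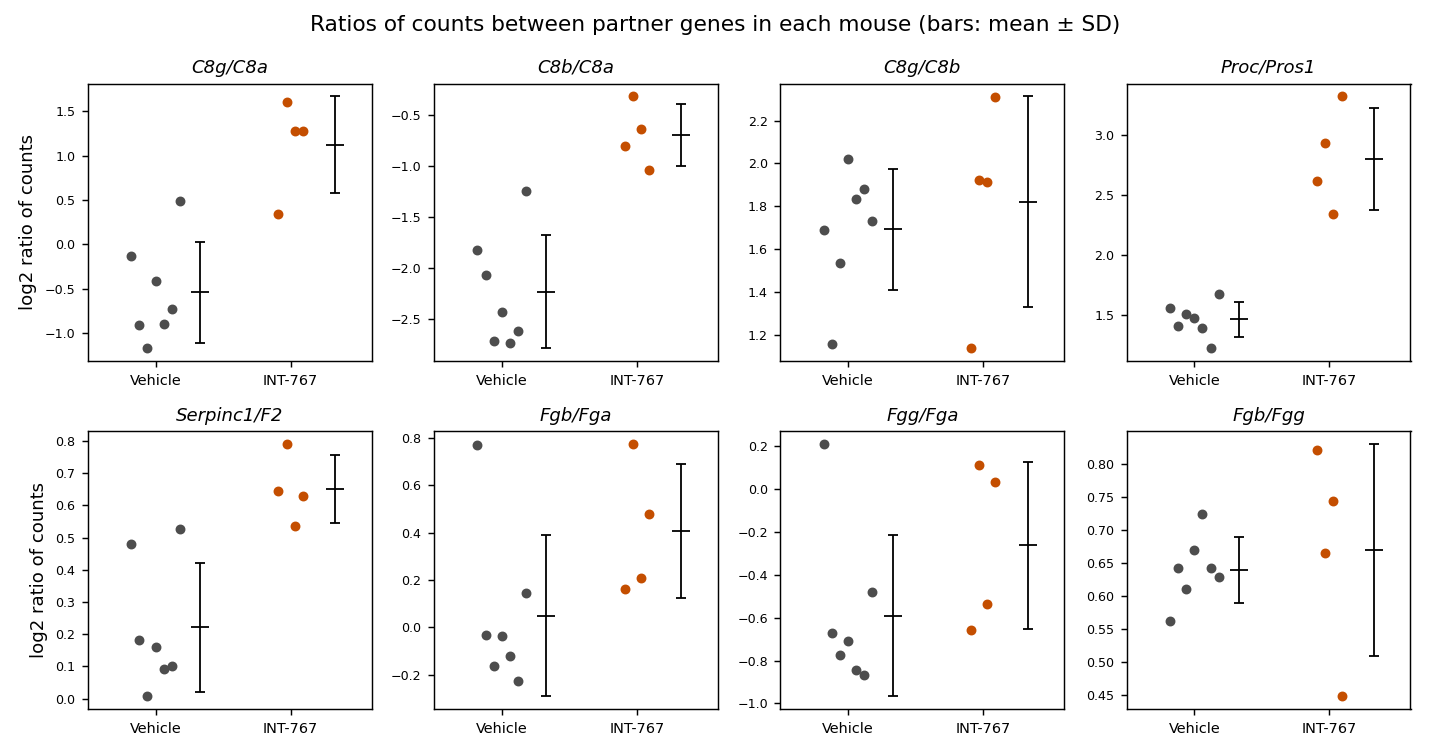
Log2 ratio of counts (vertical axes) for 8 pairs of partner genes in each of 7 vehicle and 4 INT-767 mice; bars are mean ± SD. *C8b*/*C8a* and *Proc*/*Pros1* do not overlap between groups, and the ratios among the fibrinogen chains do.

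The complement regulators among the members did not pass the test. *Cfi*, the protease that inactivates C3b and C4b, averaged 607 CPM ± 157 and 865 ± 193 (0.51 ± 0.22, adjusted p = 0.128). *C4bp*, its cofactor, had a log2 fold change of 0.14 ± 0.21, and *Serping1*, the C1 inhibitor, of -0.24 ± 0.22.

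**Figure D4:**
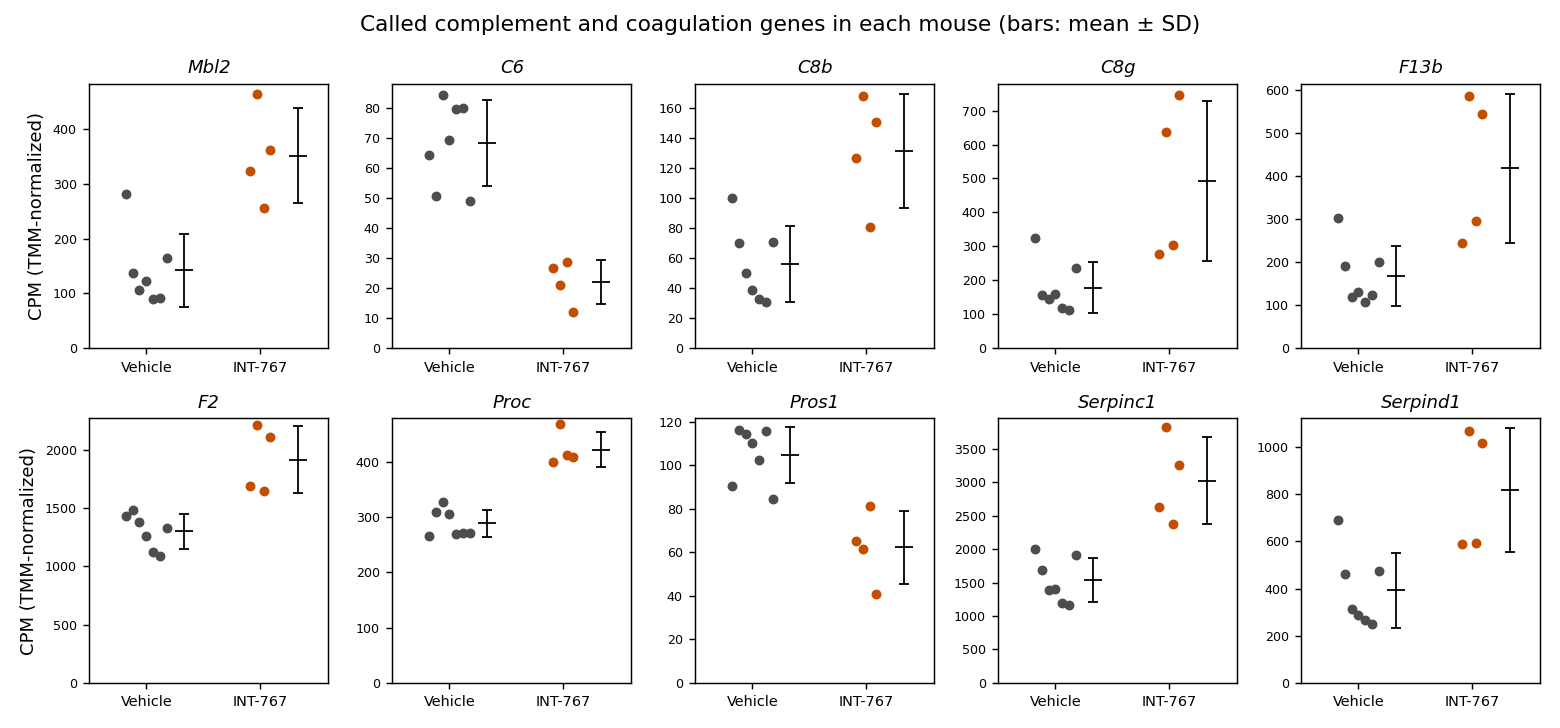
CPM (vertical axes from 0) of the 10 called members in each mouse; points are mice and bars mean ± SD for 7 vehicle and 4 INT-767 mice. *C6*, *F2*, *Proc*, *Pros1* and *Serpinc1* do not overlap between groups; in *C8b*, *C8g*, *F13b*, *Mbl2* and *Serpind1* the highest vehicle mouse is mouse 1.

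Fibrinogen, the substrate of clotting, was not called in any chain, while the factor XIII carrier rose. *Fga*, *Fgb* and *Fgg* encode its Aα, Bβ and γ chains and lie within chr3:83007724-83049863. *Fga* ranged from 1824 to 3477 CPM with vehicle (median 2318) and was 2904, 2141, 2560.0 and 1368 CPM with INT-767 (log2 fold change -0.18 ± 0.24). *Fgb* ranged from 1977 to 3456 CPM with vehicle (median 2294) and was 3246, 3661, 2959 and 1903 CPM with INT-767 (0.17 ± 0.23). *Fgg* ranged from 1267 to 2341 CPM with vehicle (median 1442) and was 1838, 2308, 1766 and 1395 CPM with INT-767 (0.11 ± 0.23). The groups overlapped in each chain and the adjusted p-values were 0.614, 0.614 and 0.737. The direction of *Fgb* and *Fgg* turned to -0.02 and -0.08 with library sizes alone. The log2 ratio of *Fgb* to *Fgg* stayed within 0.56 to 0.72 in vehicle mice and 0.45 to 0.82 in INT-767 mice.

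*F13b* encodes the B subunit that carries factor XIII in plasma. It ranged from 108 to 301 CPM with vehicle (median 131) and was 244, 585, 296 and 544 CPM with INT-767. Vehicle mouse 1, at 301, lay above treated mice 1 and 3, and the log2 fold change was 1.32 ± 0.32 (2.49-fold, adjusted p = 0.0252). The call was lost without vehicle mouse 5 or 6 or INT-767 mouse 2 or 4 (adjusted p up to 0.111).

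*F2*, for prothrombin, was the member of the common and extrinsic pathway that rose. It ranged from 1089 to 1482 CPM with vehicle (median 1324) and was 1688, 2211, 1643 and 2105 CPM with INT-767, each above all vehicle mice. The fold change was 1.47 (log2 0.56 ± 0.15, adjusted p = 0.0383), and it was not called in the mice with a positive length trend (0.40, adjusted p = 0.142) or with library sizes alone (0.34, adjusted p = 0.0904). Nor was it without vehicle mouse 3, 4, 5, 6 or 7 or INT-767 mouse 2 or 4 (adjusted p up to 0.158). *F7*, the extrinsic pathway protease, ranged from 26.5 to 56.8 CPM with vehicle (median 40.0) and was 68.0, 57.0, 50.6 and 29.7 CPM with INT-767 (0.37 ± 0.24, adjusted p = 0.277). Its neighbour on chromosome 8, *F10*, had a log2 fold change of 0.40 ± 0.24, and *F5*, the cofactor of factor Xa, of -0.32 ± 0.35.

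Of the 5 genes of the intrinsic pathway and contact system none passed the adjusted threshold in the main fit. There, 3 had an unadjusted p under 0.05, all of them higher (17.4% of all tested genes). DESeq2 called *F9*, *F12* and *Klkb1* higher (10.4% of all tested genes). With the offset for GC content and length, *F12* (0.433, adjusted p = 0.0416) and *Klkb1* (0.665, adjusted p = 0.0278) were called higher (7.76% of all), and *F9* was at 0.113 (adjusted p = 0.658). *F12*, for Hageman factor, was separated between groups, from 331 to 445 CPM with vehicle and from 472 to 519 CPM with INT-767 (0.39 ± 0.13, adjusted p = 0.0691). *Klkb1*, for plasma prekallikrein, averaged 12.7 CPM ± 3.75 and 20.4 ± 1.71 (0.68 ± 0.20, adjusted p = 0.0501). The gene model counted under that name shares 81.9% of its windows with an overlapping model that GENCODE M21 names *Klkb1*, so that its reads could be split or shared. *F9* was at 150.3 CPM ± 35.3 and 223 ± 47.4 (0.57 ± 0.19, adjusted p = 0.0759). *F11* ranged from 16.7 to 49.7 CPM with vehicle (median 35.1) and was 36.7, 15.9, 30.1 and 14.9 CPM with INT-767 (-0.43 ± 0.32, adjusted p = 0.334). *Kng1*, for kininogen, the source of bradykinin, ranged from 1249 to 1870 CPM with vehicle (median 1417) and was 2157, 2158, 1640 and 908 CPM with INT-767 (0.21 ± 0.23, adjusted p = 0.521). INT-767 mouse 4 was the lowest of all 11 mice in both *F11* and *Kng1*.

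Each of the 4 anticoagulants was called, 3 higher and 1 lower (9.72% of all tested genes in either direction), although with library sizes alone only *Serpinc1* and *Pros1* were. *Serpinc1*, for antithrombin, ranged from 1167 to 1998 CPM with vehicle (median 1402) and was 2638, 3824, 2382 and 3255 CPM with INT-767, each above all vehicle mice. The fold change was 1.97 (log2 0.98 ± 0.20, adjusted p = 0.0127). Of its exon bases 34.4% overlap genes on the opposite strand, *Zbtb37* among them. *Serpind1*, for heparin cofactor II, ranged from 250 to 692 CPM with vehicle (median 312) and was 590, 1068, 592 and 1019 CPM with INT-767 (1.06 ± 0.29, adjusted p = 0.0417). Vehicle mouse 1, at 692, exceeded treated mice 1 and 3. *Serpind1* was not called in 12 of the 24 alternatives, among them library sizes alone (adjusted p = 0.0580) and leaving out vehicle mouse 2, 3, 4, 5 or 6 or INT-767 mouse 2 or 4 (adjusted p up to 0.163), and *Serpinc1* not without INT-767 mouse 2 (adjusted p = 0.0653).

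Protein C and its cofactor protein S moved apart. *Proc*, for protein C, ranged from 267 to 327 CPM with vehicle (median 272) and was 400, 469, 412 and 408 CPM with INT-767, each above all vehicle mice (0.55 ± 0.12, adjusted p = 0.0201). *Pros1*, for protein S, which endothelium and other cells make as well, ranged from 84.6 to 116 CPM with vehicle (median 110) and was 65.4, 61.6, 81.4 and 40.9 CPM with INT-767, each below all vehicle mice (-0.75 ± 0.18, adjusted p = 0.0258). The log2 ratio of *Proc* to *Pros1* lay between 1.23 and 1.68 with vehicle and was 2.61, 2.93, 2.34 and 3.32 with INT-767. The log2 ratio of *Serpinc1* to *F2* was 0.22 ± 0.20 (SD, n = 7) with vehicle and 0.65 ± 0.11 (n = 4) with INT-767, and the lowest treated mouse (0.54) was close to vehicle mouse 7 (0.53). *Proc* missed the threshold in the mice with a positive length trend (0.46, adjusted p = 0.0608) and with library sizes alone (0.34, adjusted p = 0.0806). It also missed it without vehicle mouse 6 or INT-767 mouse 2 (adjusted p up to 0.0999), and *Pros1* without vehicle mouse 4 or 6 or INT-767 mouse 2 (adjusted p up to 0.103).

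Both fibrinolysis members were higher without passing the test in the main fit. *Plg*, for plasminogen, ranged from 1118 to 2043 CPM with vehicle (median 1481) and was 1788, 2946, 2128 and 2961 CPM with INT-767. The log2 fold change was 0.68 ± 0.21 (adjusted p = 0.0548), and 11.3% of its exon bases overlap *Slc22a3* on the opposite strand. *Serpinf2*, for the plasmin inhibitor α2-antiplasmin, averaged 462 CPM ± 95.1 and 698 ± 120 (0.60 ± 0.18, adjusted p = 0.0569). Both were called higher by DESeq2 (10.4% of all tested genes) and without vehicle mouse 1 (13.7% of all) or INT-767 mouse 1 (7.2% of all). With the offset for GC content and length *Plg* was called (0.79, adjusted p = 0.0435) and *Serpinf2* was not (0.61, adjusted p = 0.05005).

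By cell source, 8 of the 37 hepatocyte-made members rose (21.6%, against 5.04% of all tested genes) and 2 fell (5.41%, against 4.68%), with a median log2 fold change of 0.33. Among the 30 for which no other cell source was listed, 8 rose and 1 fell (median 0.39), and among the 7 also made by other cells (*C1ra*, *C2*, *C3*, *C4b*, *Cfb*, *Serping1* and *Pros1*) 0 rose and 1 fell (median -0.09). None of the 4 macrophage-made members was called in the main fit (1, *C1qc*, was lower at an unadjusted p under 0.05, as were 15.6% of all tested genes), and their median was -0.30. Of these 4, *Cfp* was listed with other cell sources too. *C1qc* was called lower with library sizes alone (-0.77, adjusted p = 0.0420), with the offset for GC content and length (-0.66, adjusted p = 0.0235) and without INT-767 mouse 4 (-0.76, adjusted p = 0.0478), where *Cfp* was called lower too (-0.73, adjusted p = 0.0261). Without INT-767 mouse 4 that median was -0.75, and in the mice with a positive length trend it was -0.69, where each of the 4 fell (adjusted p-values between 0.0171 and 0.0221). Over all fits that left out 1 mouse, the macrophage-made median lay between -0.749 and -0.142. The difference between hepatocyte-made and macrophage-made members was not tested as such, since the lists share their mice and were chosen with results known.

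In bulk liver RNA, fewer cells of a type and less RNA per cell cannot be told apart. Among 12 hepatocyte markers 3 rose, *Hpd* among them, and 0 fell (9 others not called), where 5.04% of all tested genes rose and 4.68% fell, with a median log2 fold change of 0.74. Their sum was 72280 CPM ± 7502 with vehicle and 108800 ± 15170 with INT-767, *Alb* the most abundant, and none was at 0. The summed level of hepatocyte-made members was 25390 CPM ± 4146 with vehicle and 31020 ± 5117 with INT-767, with overlap (20950 to 31290 and 24640 to 35600). The part of the hepatocyte markers' difference in the members' difference was not tested.

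Among 12 general macrophage markers 0 rose and 7 fell (4.68% of all tested genes fell; *Aif1*, *Cd68*, *Csf1r*, *Ctss*, *Cybb*, *Fcgr1* and *Laptm5*), with a median of -0.86. *Csf1r*, the receptor for colony-stimulating factor 1, was at 100 CPM ± 22.8 with vehicle and 45.5 ± 5.72 with INT-767 (-1.14 ± 0.19, adjusted p = 0.00498). The sum of these markers was 825 CPM ± 110 with vehicle and 504 ± 138 with INT-767, with *Lyz2* the most abundant (282 and 214 CPM) and none at 0. The summed C1q chains were 323 CPM ± 89.1 and 259 ± 143. Among the 8 Kupffer cell markers 0 rose and 0 fell by edgeR, with a median of -0.25 and sums of 406 CPM ± 45.6 and 441 ± 201 (*Cd5l* the most abundant, none at 0). Of their log2 fold changes 3 were positive and 5 negative. The sums include *Nr1h3* (68.4 and 89.4 CPM) and *Id3* (52.4 and 52.5 CPM). *Timd4*, *Marco*, *Folr2* and *Cd163*, all with a negative change, averaged at most 6.84 CPM and weigh little in them. C1q chains and Kupffer markers shared their highest mouse, INT-767 mouse 4 (469 and 727 CPM). The part of macrophage content in the C1q values was not tested.

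**Figure D5:**
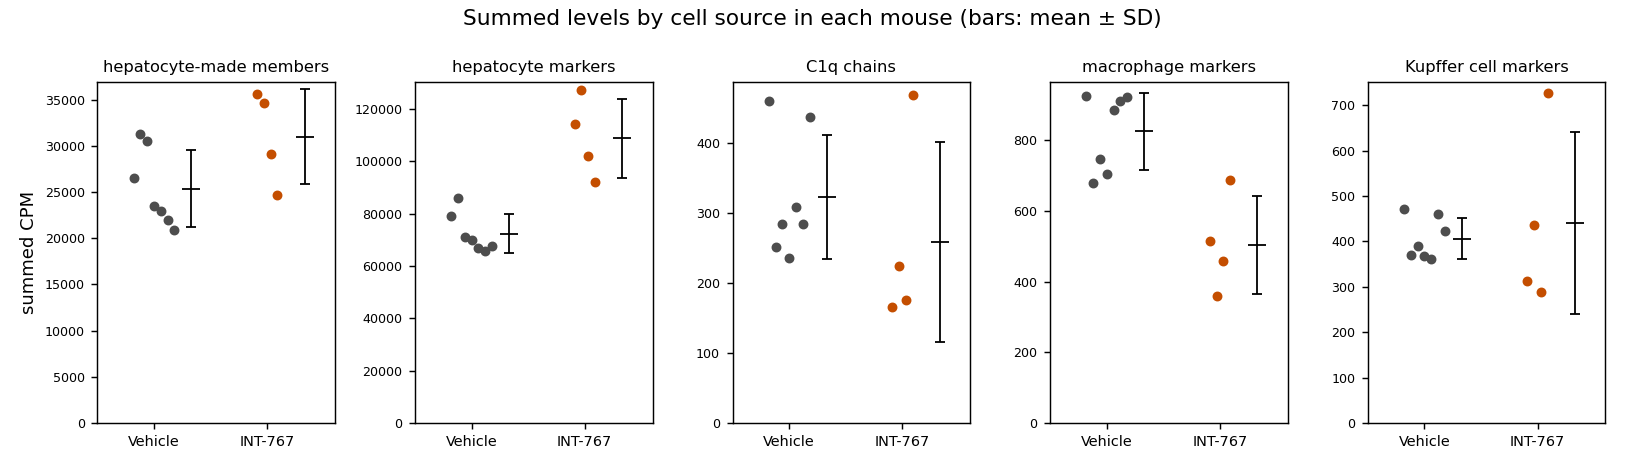
Summed CPM (vertical axes from 0) of hepatocyte-made members, 12 hepatocyte markers, 3 C1q chains, 12 macrophage markers and 8 Kupffer cell markers in each mouse; bars are mean ± SD for 7 vehicle and 4 INT-767 mice. Hepatocyte markers do not overlap between groups, and C1q chains and Kupffer markers have their highest value in INT-767 mouse 4.

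Of 15 further complement components and lectins, 12 were tested, 5 rose and 1 fell. Of all tested genes 5.04% rose and 4.68% fell, and a count of 1 in the longer of the further lists is near these shares. Among the 5 were *C1rl* and *C1s1* (the C1s protease that pairs with C1r). *C1s1* was at 281 CPM ± 25.7 with vehicle and 406 ± 72.6 with INT-767 (0.53 ± 0.14, adjusted p = 0.0383), without overlap. *C7*, whose protein follows C6 in the attack complex, fell like *C6*, from 4.36 to 9.79 CPM with vehicle to 2.47, 2.07, 3.94 and 1.42 CPM with INT-767 (-1.47 ± 0.31, adjusted p = 0.0150). Of 8 tested complement regulators outside the members, 0 rose and 0 fell by edgeR (adjusted p-values from 0.102).

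Of the 8 complement receptors, which sit mainly on myeloid cells, 0 rose and 3 fell (4.68% of all tested genes fell): *Itgam* (-1.73 ± 0.29, adjusted p = 0.00498), *C5ar1* (-1.15 ± 0.25, adjusted p = 0.0158) and *Itgb2* (-0.85 ± 0.25, adjusted p = 0.0491). All 8 had a negative log2 fold change, with a median of -0.81, and 7 of the 12 general macrophage markers fell too. Their summed level was 116 CPM ± 21.1 with vehicle and 64.1 ± 15.6 with INT-767.

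Among 10 other clotting genes 1 rose and 1 fell, shares near the 5.04% and 4.68% of all tested genes. *Lman1*, the cargo receptor that carries factors V and VIII out of the endoplasmic reticulum, rose (0.83 ± 0.16, adjusted p = 0.0115). *Vwf*, for the endothelial and platelet von Willebrand factor, fell (-1.31 ± 0.35, adjusted p = 0.0360). Sinusoidal endothelial markers had 0 of 8 called in either direction by edgeR (median -0.24). Of the 2 tested platelet markers, *Pf4* and *Itga2b*, 0 were called, at log2 fold changes of -1.004 and -0.449.

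Vitamin K drives the carboxylation that prothrombin, factors VII, IX and X, and proteins C and S need. Of 6 genes of its cycle 2 rose (5.04% of all tested genes rose) and 0 fell: *Vkorc1*, the epoxide reductase that warfarin blocks, at 29.7 CPM ± 6.15 and 54.9 ± 14.96 (0.89 ± 0.20, adjusted p = 0.0204), and *Vkorc1l1*, its paralog, at 60.6 CPM ± 5.12 and 83.1 ± 3.80 (0.46 ± 0.11, adjusted p = 0.0290). Both were without overlap between groups. *Ggcx*, the carboxylase itself, was at 12.02 and 10.9 CPM (-0.13 ± 0.24, adjusted p = 0.701).

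Of 7 tested anticoagulants and protease inhibitors outside the members, 1 rose (*Tfpi2*, 1.10 ± 0.25, adjusted p = 0.0196) and 0 fell, where 5.04% of all tested genes rose. Of 8 other fibrinolysis genes 0 rose and 1 fell (4.68% of all tested genes fell), the urokinase receptor *Plaur* (-1.22 ± 0.28, adjusted p = 0.0223). Of the 3 tested thrombin and protease-activated receptors, *F2r* fell (-0.65 ± 0.18, adjusted p = 0.0422).

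Of 13 transcription factors of the liver, 1 rose, a share near the 5.04% of all tested genes: *Nr0b2*, which encodes SHP and is a known FXR target, at 17.0 CPM ± 5.91 and 49.6 ± 9.50 (1.54 ± 0.25, adjusted p = 0.00475). *Hnf4a* (0.16 ± 0.19), *Cebpa* (0.72 ± 0.35) and *Nr1h4*, for FXR (-0.25 ± 0.15), were not called. Of 18 acute phase genes, which share hepatocyte origin and cytokine control with several members, 1 rose (*Serpina3m*, 0.88) and 2 fell (*Orm2*, -1.99, and *Lcn2*, -2.05), with a median of -0.22, where 5.04% of all tested genes rose and 4.68% fell.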

How the data were processed

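Liver RNA of 11 male *ob/ob* mice (7 vehicle, 4 INT-767, grouped by the sample labels) was measured by stranded mRNA sequencing for 75 cycles. The authors deposited whole-number read counts per gene, aligned with STAR to GRCm38 and not normalized. Which program counted the reads, whether by strand, and in which batches is not given in the sources at hand. Each column is 1 mouse.

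Counts were analysed in R 4.3.3 with edgeR 4.0.16: TMM factors, filterByExpr (minimum count 10, minimum total 15), glmQLFit (robust) and glmQLFTest on 13880 genes, with Benjamini-Hochberg adjustment over all of them and a threshold of 0.05. Each standard error was derived from the log2 fold change and its F statistic. Coordinates, exon overlap and shared windows of 75 bases come from GENCODE M21, promoters from RefSeq (GRCm38.p6). A floor is 3 counts in a library and reflects counting error alone.

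The members, roles, cell sources and further lists were chosen with earlier results of these data known. Values are given as the lowest, median and highest of the vehicle mice and in each INT-767 mouse, for each called member and, whatever their change, for the C1q chains, properdin, adipsin, C3, C5, C9, MBL-C, the fibrinogen chains, prothrombin, factors VII and XI, kininogen, antithrombin, protein C and plasminogen, and up to 6 called genes are named per further pathway list, a few of which are not reported here. Called cell type markers are named without that limit. Alternatives were RLE, upper-quartile and no scaling factors, other filters, DESeq2 1.42.0, limma-voom 3.58.1, thinning, leaving out each mouse, a replicate block, a threshold of 0.01 and an offset for GC content and length. On simulated data with this design (13880 genes, 200 of them altered by a log2 fold change of 2) edgeR found 94.5% of these and called 13 others. Figures used matplotlib 3.10.9.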

Additional observations from a re-analysis of the deposited data

Results flagged for a closer look

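In 9 of 150 sets of values examined (each member, each summed list and each ratio of partner genes, by group), 1 mouse lay farther from the rest of its group than Dixon's 95% limit allows. Chance alone gives about 1 in 20. With INT-767, mouse 4 stood out for *C1qb* (202.6 CPM, the next 76.9) and *Cfd* (2.17 CPM, the next 0.276). With vehicle, mouse 1 stood out for *Mbl1* (201.9 CPM, the next 104), *Mbl2* (280.8 CPM, the next 163.7) and *Klkb1* (20.13 CPM, the next 13.83), and mouse 2 for *Cfb* (15 CPM, the next 11.77). Vehicle mouse 1 also stood out for the log2 ratios of *Fgb* to *Fga* (0.77, the next 0.146) and of *Fgg* to *Fga* (0.208, the next -0.483), and vehicle mouse 3 for the summed level of the other fibrinolysis genes (2668 CPM, the next 1196).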

How the results depend on the processing

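Over the 24 alternatives, the 10 called members kept their direction. *C6* lost its call only with a replicate block, with or without the offset. All genes had 700 calls higher and 649 lower, the members 8 and 2. With library sizes alone these were 331 and 1026 (24.4% higher, against 51.9%), 5 and 4, with a hepatocyte-made median of 0.122. With upper-quartile factors 36.5% of calls were higher, and 6 members rose and 2 fell (3.36% and 5.85% of all tested genes). DESeq2 gave 1443 and 1368 (10.4% and 9.86% of all tested genes), with 14 members higher and 2 lower. At a threshold of 0.01, 158 and 87 genes (1.14% and 0.627% of all tested genes), 0 members higher and 1 lower were called. The offset for GC content and length gave 1073 genes higher and 4 members lower, and all 10 calls remained.

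The replicate numbers do not pair the mice: same-numbered deviations correlated at -0.69, 0.215, 0.148 and -0.482. A replicate block left 0 genes called in either direction by edgeR (1347 with an unadjusted p under 0.05) and 0 and 0 members (6 and 3 unadjusted), and the offset with the block 0 of each as well. Vehicle mice 5, 6 and 7 have no treated mouse of the same number, so with the block the group difference rests on mice 1 to 4 of each group. The cause of the lost calls was not tested.

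Leaving out 1 mouse in turn gave between 164 and 1906 genes higher and 110 and 1370 lower, between 0 and 12 members higher and 1 and 4 lower, medians of hepatocyte-made members between 0.206 and 0.389, and of macrophage-made members between -0.749 and -0.142. In the mice with a positive length trend, added after the data were seen, 8 members were lower and the macrophage-made median was -0.69.

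Directions turned for uncalled members only. With library sizes alone *C4bp* was at -0.049, *Fgb* -0.022 and *Fgg* -0.083. With the block *C3* was at -0.068, *C4bp* -0.058, *Fgb* -0.076 and *Fgg* -0.124. With the offset *C2* was at 0.008, *Hc* 0.015, *C4bp* -0.133 and *Fgg* -0.250. With the offset and block *C4bp* was at -0.357, *Fgb* -0.113, *Fgg* -0.464, *F9* -0.009 and *Kng1* -0.049. Leaving out 1 mouse in turn, *C2* lay between -0.241 and 0.113, *C3* between -0.154 and 0.497, *Hc* between -0.309 and 0.1, and *Fgg* between -0.029 and 0.214, turning without INT-767 mouse 4, 1, 4 and 2. In the mice with a positive length trend *C2* was at 0.130 and *Hc* at 0.118. Depth limits *Cfd* most, at 0 to 2.49 CPM.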

Other observations

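Markers of further cell types give the setting of the complement and clotting genes (5.04% of all tested genes rose and 4.68% fell). Stellate cell and myofibroblast markers had 0 of 8 higher and 3 lower (*Col1a1*, -2.96, *Col1a2*, -2.35, and *Pdgfrb*, -1.31 on the log2 scale), with a median of -0.97. Of 8 lipid-associated macrophage markers 0 rose and 1 fell (*Cd9*, -0.76; median -0.85). Of 8 cholangiocyte markers 0 rose and 2 fell (*Muc1*, -1.42, and *Cldn4*, -1.29; median -0.62). Of 3 tested neutrophil markers 0 rose and 1 fell (*Csf3r*, -1.49). Lymphocyte markers had 0 of 8 called by edgeR (median -0.22).

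Of 4 tested adipocyte markers, 0 rose and 2 fell, *Cidea* (-3.16) and *Cidec* (-1.41), lipid droplet genes that steatotic hepatocytes also express. *Cidec* averaged 187 CPM ± 45.0 with vehicle (SD, n = 7) and 70.5 ± 37.6 with INT-767 (n = 4). *Retn* was at 0 counts in all 11 mice.

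Per length of exon, with vehicle, *C3* (1007 CPM per kb), *Fga* (842), *Fgg* (807) and *Fgb* (688) were the most abundant members, and *Cfd* (1.20), *Cfb* (4.18) and *Klkb1* (4.62) the least. With INT-767 the first 4 were at 1175, 745, 873 and 772 CPM per kb. The low values of *Cfb* and *Klkb1* hold within the counting used, since their reads could be split or shared with overlapping gene models. The most even members across vehicle mice were *Proc* (coefficient of variation 8.61%), *F12* (11.1%) and *F2* (11.6%). *F12* was at 4.13% across the INT-767 mice.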
